A study of Mus musculus with 36 samples.

Results

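The embryonic globins Hbb-bh1, Hba-x and Hbb-y and the blood transcription factors Gata1, Klf1, Tal1, Lmo2, Runx1 and Gfi1b were followed through the differentiation of mouse embryonic stem cells. Members were the entries whose gene name equals one of these 9 names, and all 9 had an entry in each of the 6 tables, of 37561 gene entries per table. RNA came from AB2.2 cells that lack LncCPR, a long noncoding RNA, and from control AB2.2 cells, each at days 0, 3, 5, 8, 10 and 12, with 3 libraries in each of the 12 groups. AB2.2 cells are embryonic stem cells of the mouse, kept as a line. The knockout was made with Cas9 and guides on both sides of the gene, followed by single-cell sorting, and how many knockout lines were sequenced is not stated. Day 0 cells were undifferentiated. The later samples were whole embryoid bodies, balls of differentiating cells formed in hanging drops without leukemia inhibitory factor, so each holds a mixture of cell types. Nothing in the labels says that the replicates were separate cultures, so the p-values measure the spread between these libraries, which may be technical.

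Primitive red cells are the first blood cells of the mouse embryo and arise in the yolk sac from mesoderm that also gives rise to endothelium. They carry embryonic hemoglobin, in which Hba-x encodes the alpha-like zeta chain and Hbb-bh1 and Hbb-y encode the beta-like beta-h1 and epsilon-y chains. In mouse primitive red cells Hbb-bh1 RNA predominates early and Hbb-y RNA later. Tal1, a basic helix-loop-helix protein, the adapter Lmo2 and the zinc finger protein Gata1 join in one complex on blood genes. Klf1 binds CACCC elements of globin promoters, Gfi1b is a zinc finger repressor of red cell and megakaryocyte precursors, and Runx1 is needed for the later, definitive blood lineages.

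Because the results turn on the globins, the stretch of 170 bases just upstream of the transcription start is shown for Hba-x and Hbb-y, with GATA, CACCC and CCAAT letters in capitals. Both are RefSeq sequences of build GRCm38.p6, read 5′ to 3′ on the strand of the gene: Hba-x from chr11:32276430-32276599 on the plus strand and Hbb-y from chr7:103853208-103853377 on the minus strand.
Hba-x: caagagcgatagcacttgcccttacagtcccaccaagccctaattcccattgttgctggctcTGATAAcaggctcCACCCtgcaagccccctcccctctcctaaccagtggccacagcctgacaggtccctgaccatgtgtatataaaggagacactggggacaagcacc
Hbb-y: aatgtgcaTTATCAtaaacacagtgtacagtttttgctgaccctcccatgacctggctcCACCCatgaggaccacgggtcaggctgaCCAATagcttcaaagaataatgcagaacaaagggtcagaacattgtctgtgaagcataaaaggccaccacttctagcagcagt
The GATA letters begin 108 bases upstream of the start in Hba-x and 162 bases upstream, on the opposite strand, in Hbb-y. CACCC begins 95 bases upstream in Hba-x and 111 bases upstream in Hbb-y. The search covered both strands of the 250 bases upstream of every gene start in the RefSeq promoter table. The GATA words were AGATAA and its variants with a T as first base, a G as last base, or both. CACCC was searched as such, and so was CCAAT, and no match of one motif overlapped a match of another in the printed stretches. A GATA word was present in 26.5% of the 32851 promoters, CACCC in 52.0%, CCAAT in 33.8%, and a GATA word together with CACCC in 11.8%. Of the members, 7 matched the table, with 9 promoters; Hbb-bh1 and Lmo2 are named only. A GATA word and CACCC occurred together in Hba-x, Hbb-y, Gfi1b, Klf1 and 1 of the 2 Tal1 promoters. Gata1 and the 2 Runx1 promoters held no GATA word in this window. A match describes letters in the sequence, not a bound site.

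The level of a gene is given as deposited, in FPKM, fragments scaled by transcript length and by library total. Libraries ran from 294740 to 403675 in summed FPKM and from 11248 to 13183 in genes over 1 FPKM. Absolute depth is unknown. Relative depth, read from the steps of low genes, spanned a 3.25-fold range. The mitochondrial ribosomal RNA mt-Rnr2 was above 0 in 4 libraries, where it took up to 17.2% of the summed FPKM. They were control replicates 1 and 2 of day 3, knockout replicate 1 of day 8, which had that highest share, and knockout replicate 3 of day 12. Some libraries with mt-Rnr2 listed at 0 were also dominated by few genes. The 10 highest genes took 23.1% of the summed FPKM in control replicate 1 of day 5. They took 25.2% in knockout replicate 3 of day 8, 28.6% in control replicate 3 of day 8 and 30.3% in control replicate 3 of day 10. No entry was matched to LncCPR by name, so the targeted gene was not analysed here. The summed level of 10 pluripotency genes at day 0 was 2414 to 2539 FPKM in knockout and 2401 to 2469 FPKM in control cells.

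Knockout and control libraries of a day were compared with limma on log2(FPKM + 1), for genes that averaged at least 1 FPKM across the 6 libraries. P-values were adjusted over all genes tested that day, and a gene was said to rise or fall at an adjusted p below 0.05. A fold change on this scale understates the change of a low gene. In the knockout, Hbb-bh1 and Hba-x were far lower at day 8, when they had already appeared in control embryoid bodies. Hba-x and Hbb-y fell at days 10 and 12, and Hbb-bh1 was lower on average at both days without passing the test. Lmo2 was higher in the knockout at day 5 and lower at day 8, and Runx1 was lower at day 12. Gata1, Klf1, Tal1 and Gfi1b never reached a mean of 1 FPKM across the 6 libraries of a day. None of the 9 members reached it at days 0 and 3, 1 did at day 5, 4 at day 8 and 5 each at days 10 and 12.

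Hbb-bh1 (ENSMUSG00000052217.4, chromosome 7), the embryonic beta-like chain, was at most 0.131 FPKM in the 18 libraries of days 0, 3 and 5, and 12 of those libraries listed it at 0. At day 8 the 3 knockout libraries listed 0, 0.870 and 0.417 FPKM, against 16.9, 14.5 and 14.4 FPKM in the control libraries. Every control library of day 8 was thus above every knockout library, by a wide margin. Hbb-bh1 fell in the knockout by 3.55 on the log2 scale (SE 0.23, adjusted p = 3.88e-05). At day 10 its levels were 8.74, 12.1 and 25.4 FPKM in knockout libraries and 37.7, 43.3 and 14.9 FPKM in control libraries. The groups overlapped there, because knockout replicate 3 stood above control replicate 3. The log2 difference was -1.01 (95% interval -1.78 to -0.23, adjusted p = 0.0651), which missed the threshold. At day 12 the knockout libraries held 8.38, 10.7 and 9.0 FPKM and the control libraries 30.6, 15.9 and 13.2 FPKM. These groups did not overlap, yet the log2 difference of -0.93 (95% interval -1.51 to -0.35) also missed the threshold (adjusted p = 0.0618).

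Hba-x (ENSMUSG00000055609.2, chromosome 11), the embryonic alpha-like chain, followed nearly the same course. It was at most 0.348 FPKM through day 5. At day 8 it was listed at 0.867, 0.676 and 0.156 FPKM in knockout libraries and at 14.7, 12.8 and 15.6 FPKM in control libraries. The means were 0.567 ± 0.368 FPKM in knockout and 14.4 ± 1.42 FPKM in control (SD, n = 3 each), so the control mean was 25.4 times that of the knockout. It fell in the knockout by 3.32 on the log2 scale (SE 0.21, adjusted p = 3.88e-05). At day 10 the values were 4.08, 7.77 and 22.6 FPKM in knockout and 35.5, 37.8 and 16.9 FPKM in control libraries, again with the third knockout library above the third control library. Hba-x fell by 1.53 (SE 0.42, adjusted p = 0.0228), a call that was lost without control replicate 2 (log2 difference -1.33, adjusted p = 0.0784), without control replicate 3 (-1.89, adjusted p = 0.0540) and without a filter on low values (adjusted p = 0.251). At day 12 the level averaged 6.69 ± 1.59 FPKM in knockout and 21.5 ± 4.68 FPKM in control libraries (SD, n = 3 each) with no overlap. It fell by 1.55 at that day (SE 0.19, adjusted p = 0.00227).

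Hbb-y (ENSMUSG00000052187.3, chromosome 7), the embryonic epsilon-y chain, stayed far below the other embryonic globins in FPKM, a per-length scale, from day 8 on. It was at most 0.490 FPKM through day 5. At day 8 it was listed at 0 in all 3 knockout libraries, against 0.572, 0.173 and 0.864 FPKM in control libraries, and its mean was too low for the test. At day 10 the knockout libraries listed 0, 0 and 0.998 FPKM and the control libraries 4.17, 5.90 and 2.20 FPKM. At day 12 the knockout libraries listed 0.116, 0.239 and 0 FPKM and the control libraries 2.11, 2.02 and 1.59 FPKM. The groups did not overlap at days 8, 10 or 12. Hbb-y fell in the knockout by 1.94 on the log2 scale at day 10 (SE 0.30, adjusted p = 0.00102; 0.0709 without a filter on low values) and by 1.38 at day 12 (SE 0.20, adjusted p = 0.00532). At days 10 and 12 it passed the filter on low values through the control libraries alone, as Hbb-bh1 and Hba-x did at day 8.

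**Figure D1:**
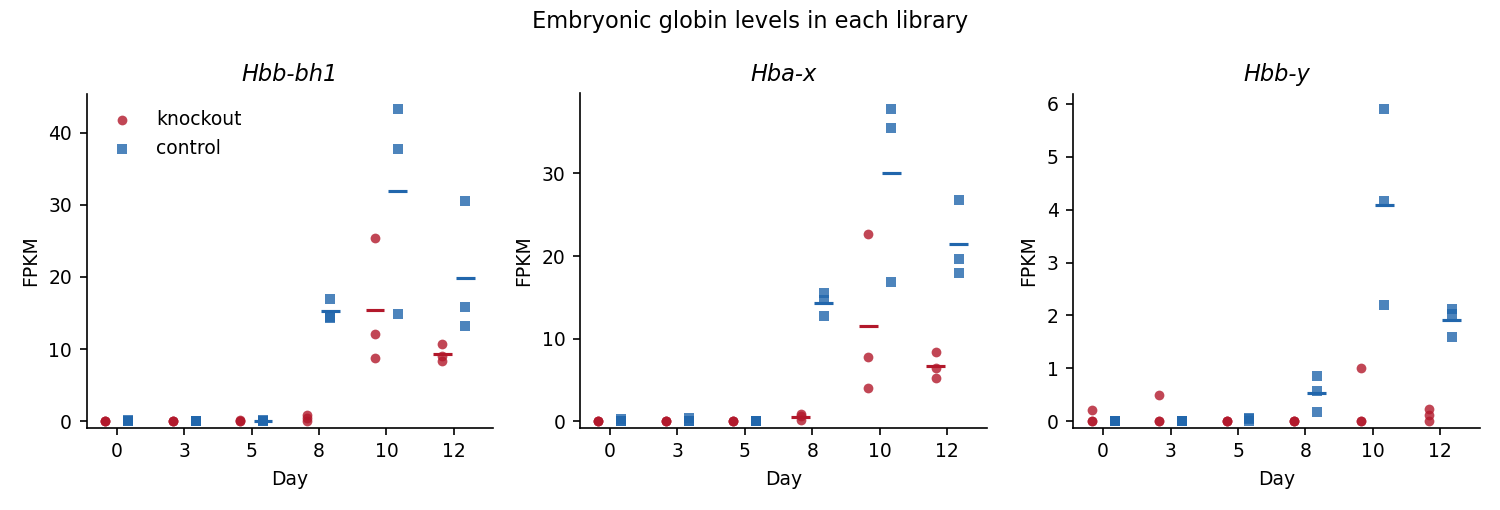
Level in FPKM of Hbb-bh1, Hba-x and Hbb-y in each library (points, n = 3 per group) by day, knockout in red and control in blue; short lines are group means, drawn where no library is listed at 0, and the y axes differ between panels. Control libraries hold 14.4 to 16.9 FPKM of Hbb-bh1 at day 8 while knockout libraries are below 1, and the spread within both groups is widest at day 10.

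The order of the globin levels can be read across groups only with care, since the tables of different days may have been normalized separately. Hbb-bh1 averaged 32.0 FPKM in control embryoid bodies of day 10, the highest group mean of any member, and 19.9 FPKM at day 12, with overlapping libraries. Knockout libraries of day 10, at 15.4 FPKM, came next and overlapped both control day 12 and control day 8, which averaged 15.2 FPKM. Knockout libraries of day 12, at 9.35 FPKM, lay below those of control day 8 without overlap. For Hba-x, control libraries of day 10, at 30.1 FPKM, and of day 12 overlapped, and control day 8, at 14.4 FPKM, overlapped with knockout day 10, at 11.5 FPKM.

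The proportions of the globins also varied. Hba-x was 0.466 to 1.49 times Hbb-bh1 in the 15 libraries of days 8 to 12 that held 1 FPKM or more of both. Hbb-y was 0, 0 and 3.93% of Hbb-bh1 in knockout libraries of day 10, against 11.04, 13.6 and 14.8% in control libraries. At day 12 it was 1.39, 2.24 and 0% in knockout libraries, against 6.92, 12.8 and 12.0% in control libraries. The percentages did not overlap at either day, but 3 libraries against 3 cannot give a two-sided exact permutation p below 0.1, and that was the p at both days (0.2 adjusted over the 4 ratio tests). This ratio was chosen after its values had been seen. The ratio of Hba-x to Hbb-bh1 was 0.466, 0.643 and 0.891 in knockout and 0.941, 0.873 and 1.13 in control libraries of day 10, an overlap of the groups (exact permutation p = 0.2). At day 12 it was 0.998, 0.610 and 0.578 in knockout and 0.877, 1.14 and 1.49 in control libraries, again with overlap (exact permutation p = 0.2).

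At day 10 the third replicate of each line stood apart in the embryonic globins. Knockout replicate 3 held the highest level of its group for 8 of the 9 members, and control replicate 3 held the lowest of its group for 6 of 9. Such counts were not taken over all genes, so they only describe the members. Control replicate 1 of day 12 was likewise the highest of its group for 6 of 9. In control replicate 3 the 10 highest genes took 30.3% of the summed FPKM, against 15.6% and 15.2% in control replicates 1 and 2. The part of this share in the members' levels was not tested. The 3 embryonic globins summed to 12.8, 19.9 and 49.0 FPKM in the knockout libraries and to 77.4, 87.0 and 33.9 FPKM in the control libraries. Without knockout replicate 3 the log2 difference of Hbb-bh1 was -1.41 and passed the test (adjusted p = 0.00266). Without control replicate 3 it was -1.47 and also passed (adjusted p = 0.0357). Hbb-y passed without either library, at log2 differences of -2.28 and -2.25.

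Globins outside the embryonic set were scarce. Of 10 other globin names, 8 had an entry, and none reached a mean of 1 FPKM over a day's libraries. The adult alpha globin genes Hba-a1 and Hba-a2 are near-identical copies whose reads the authors' counting could split, so their values are uncertain. Hba-a2 was listed at 0.270, 0.150 and 0.181 FPKM in knockout libraries of day 10, against 1.99, 2.26 and 0.657 FPKM in control libraries, with no overlap. The adult beta globins Hbb-b1 and Hbb-b2 stayed at or below 0.367 FPKM in all 36 libraries. Hbb-bh0, another beta-like gene of the same cluster, was listed at 2.88 FPKM in control replicate 2 of day 12 and at 0 in the other libraries of that day.

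Among the transcription factors, Lmo2 (ENSMUSG00000032698.8, chromosome 2), the adapter of the Tal1 complex, was the only one tested at day 5, and none was tested earlier. At day 5 it was listed at 2.25, 2.21 and 2.41 FPKM in knockout and 0.650, 1.18 and 0.758 FPKM in control libraries. All knockout libraries lay above all control libraries, and Lmo2 rose by 0.83 on the log2 scale (SE 0.15, adjusted p = 0.00618). It passed the filter on low values through the knockout libraries, since the control mean was 0.862 FPKM, and without a filter the adjusted p was 0.0610. At day 8 the direction was the opposite, with 2.35, 2.35 and 2.12 FPKM in knockout and 5.62, 4.21 and 4.59 FPKM in control libraries. The knockout level at day 8 was close to its own level at day 5, while control libraries of day 8 held the highest Lmo2 of any group. Lmo2 fell by 0.82 at day 8 (SE 0.17, adjusted p = 0.0267), a call that was lost when any single library but knockout replicate 3 was left out (log2 differences -0.89 to -0.72, adjusted p 0.0642 to 0.107) and without a filter on low values (adjusted p = 0.109). At day 10 it averaged 2.91 ± 0.681 FPKM in knockout and 2.90 ± 1.04 FPKM in control libraries, and at day 12 it averaged 2.45 ± 0.510 FPKM in knockout and 2.84 ± 0.613 FPKM in control libraries (SD, n = 3 each). The groups overlapped at both days, and the log2 difference was 0.03 at day 10 (95% interval -0.44 to 0.49) and -0.15 at day 12 (95% interval -0.57 to 0.27). The sign at day 10 was negative once libraries were rescaled to a common median.

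Runx1 (ENSMUSG00000022952.9, chromosome 16), the factor of definitive blood formation, was below 1 FPKM in all 18 libraries of days 0 to 5. At day 3 it was listed at 0.342, 0.344 and 0.305 FPKM in knockout and at 0.0839, 0.109 and 0.106 FPKM in control libraries. At day 5 the order was turned, with 0.370, 0.507 and 0.404 FPKM in knockout and 0.612, 0.763 and 0.795 FPKM in control libraries, and neither day reached the level tested. At day 8 the knockout libraries held 5.65, 5.04 and 6.54 FPKM and the control libraries 4.22, 4.28 and 4.15 FPKM. The groups did not overlap, but the log2 difference of 0.36 (95% interval 0.02 to 0.71) did not pass the test (adjusted p = 0.254). At day 10 the groups overlapped, at 3.71, 3.57 and 5.44 FPKM in knockout and 4.78, 4.76 and 4.45 FPKM in control libraries. At day 12 Runx1 was 2.52, 2.70 and 2.75 FPKM in knockout and 7.22, 5.28 and 5.66 FPKM in control libraries. All knockout libraries lay below all control libraries there, and Runx1 fell by 0.94 on the log2 scale (SE 0.15, adjusted p = 0.00932; 0.0587 without a filter on low values).

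Tal1 (ENSMUSG00000028717.6, chromosome 4), the helix-loop-helix factor required for all blood lineages, was highest in control embryoid bodies of day 8. It was listed that day at 0.589, 0.679 and 0.615 FPKM in knockout and at 1.12, 0.966 and 0.992 FPKM in control libraries, without overlap. The mean of 0.826 FPKM was under the level tested. At the other 5 days the groups overlapped, with at most 0.966 FPKM in knockout and 0.827 FPKM in control libraries of day 10.

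Gfi1b (ENSMUSG00000026815.8, chromosome 2), the repressor of the red cell and megakaryocyte lineages, was at most 0.0780 FPKM through day 5. At day 8 it was listed at 0.0219, 0.0183 and 0.0136 FPKM in knockout libraries and at 0.263, 0.273 and 0.348 FPKM in control libraries. At day 10 it was listed at 0.0335, 0.0248 and 0.113 FPKM in knockout and at 0.773, 0.416 and 0.485 FPKM in control libraries. The control libraries were higher throughout at both days. With the filter lowered to a mean of 0.2 FPKM, which Gfi1b reached at day 10 through the control libraries alone, its log2 difference there was -0.55 (adjusted p = 0.0358; 0.0494 with no filter). At day 12 the groups overlapped, at 0, 0.2003 and 0.299 FPKM in knockout and 0.0239, 0.279 and 1.89 FPKM in control libraries, the last of them the highest Gfi1b value of all.

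Gata1 (ENSMUSG00000031162.8, X chromosome), the master zinc finger factor of red cells, did not climb along with the globins. It was 0.300, 0.632 and 0.680 FPKM in knockout and 0.491, 0.581 and 0.954 FPKM in control cells at day 0. At day 5 it was 0.236, 0.430 and 0.0417 FPKM in knockout and 0.542, 0.927 and 0.688 FPKM in control libraries. At day 10 it was 0.185, 0.124 and 0.348 FPKM in knockout and 1.05, 0.427 and 0.648 FPKM in control libraries. The knockout libraries were lower without overlap at these 2 later days, and with the lower filter the log2 differences of -0.48 at both did not pass the test (adjusted p = 0.0859 at day 5 and 0.0905 at day 10). At the other 4 days the groups overlapped, with control libraries of day 8 spread from 0.0440 to 0.709 FPKM.

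Klf1 (ENSMUSG00000054191.7, chromosome 8), the activator that acts on CACCC elements, never exceeded 0.617 FPKM. The groups overlapped at 5 of the 6 days. At day 3 it was 0.320, 0.167 and 0.147 FPKM in knockout and 0.391, 0.466 and 0.487 FPKM in control libraries, without overlap and under the level tested. Genes tested on chromosome 8 had a median log2 difference of -0.07 at day 3, against 0.16 on other chromosomes. These medians were -0.25 and 0.001 at day 0, and 0.12 and 0.13 at day 5. The part of this chromosome-wide shift in the Klf1 difference was not tested. At day 10, when the globins were highest in control, Klf1 was 0.309, 0.0542 and 0.246 FPKM in knockout and 0.617, 0.125 and 0.0581 FPKM in control libraries.

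**Figure D2:**
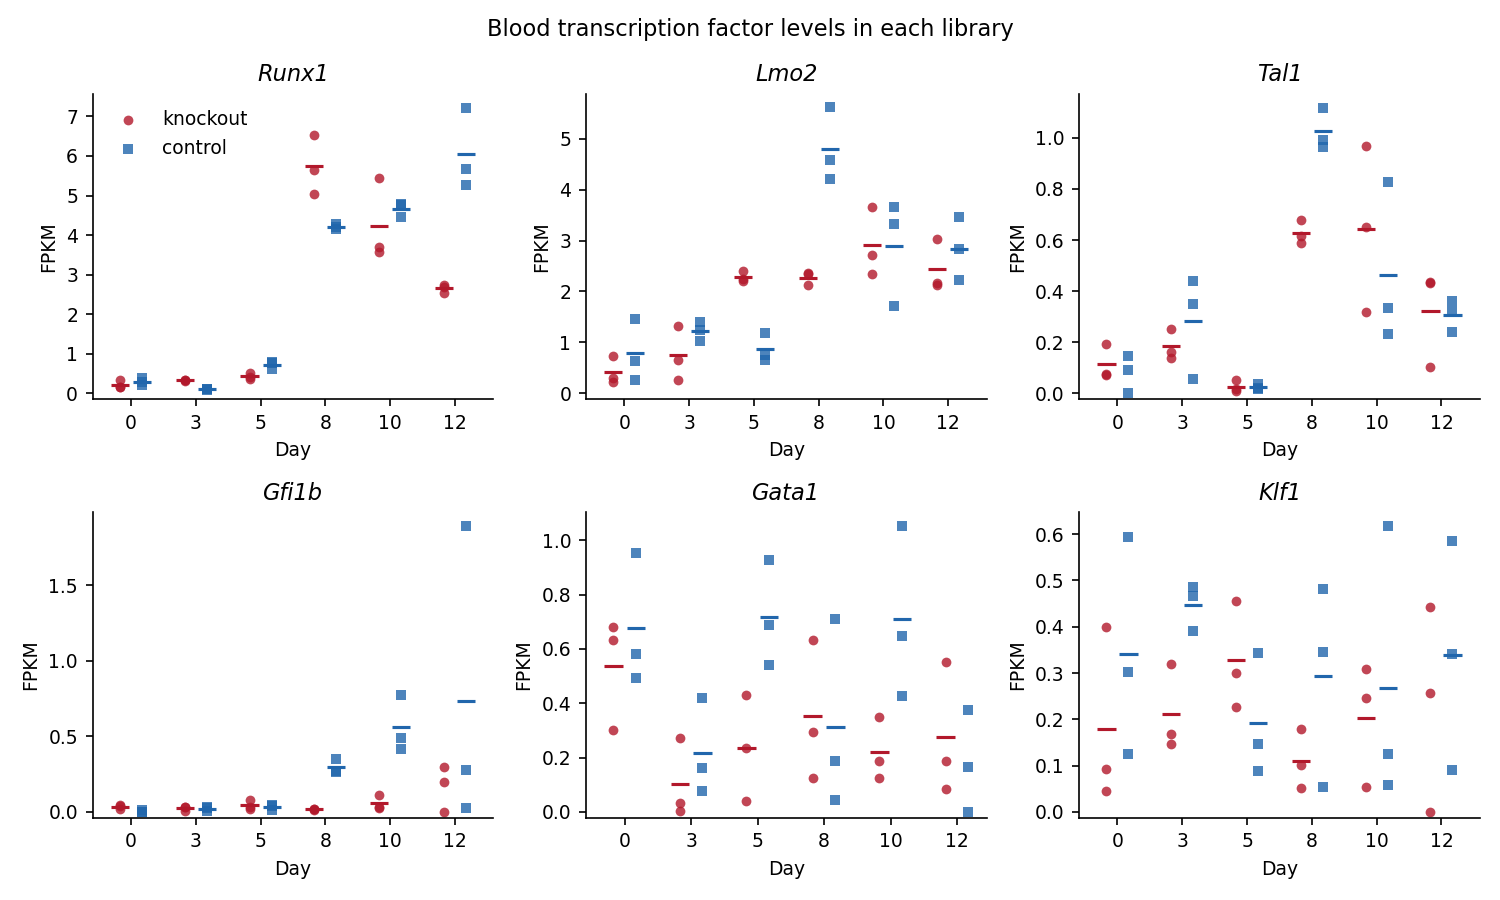
Level in FPKM of Runx1, Lmo2, Tal1, Gfi1b, Gata1 and Klf1 in each library (points, n = 3 per group) by day, knockout in red and control in blue; short lines are group means, drawn where no library is listed at 0, and the y axes differ between panels. Runx1 is above 2 FPKM in every library from day 8, whereas Gata1 and Klf1 stay near or below 1 FPKM at all days.

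Counted by day, 1 of 1 member tested rose at day 5, where 7.07% of the 12447 genes tested rose and 3.32% fell. At day 8, 3 of 4 members tested fell, where 2% of 12695 genes tested fell and 1.28% rose. At day 10, 2 of 5 fell, where 5.12% of 12938 genes fell and 15% rose. At day 12, 3 of 5 fell, where 3.48% of 13089 genes fell and 3.22% rose. The globins reached the filter at day 8 only through the control libraries, so these shares describe the members and cannot be read as support. Over all 9 members, 6 were lower in the knockout without overlap at day 8, against 7.28% of genes detected that day, and 1 was higher, against 8.35%. The 6 were Hbb-bh1, Hba-x, Hbb-y, Tal1, Lmo2 and Gfi1b. At day 10, 3 members were lower without overlap (7.89% of genes), namely Hbb-y, Gata1 and Gfi1b, and at day 12, 4 were lower (9.37% of genes), namely the 3 globins and Runx1. No member was higher without overlap at day 10 (18.8% of genes) or day 12 (10.6%). At day 5, 2 were lower (9.66% of genes) and 1 higher (13.8%). At day 3, 1 was lower (2.98%) and 1 higher (9.54%), and at day 0, 0 were lower (13.5%) and 1 was higher (9.91%). The median log2 difference of all genes tested was 0.15 at day 3, 0.13 at day 5 and 0.17 at day 10, and smaller than 0.1 at the other days. Rescaling libraries to a common median changed the split of calls over all genes: the share that were higher in the knockout was 61.9% at day 3 (41.0% rescaled), 68.1% at day 5 (45.9% rescaled), 74.6% at day 10 (44.1% rescaled) and 48.1% at day 12 (35.2% rescaled).

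**Figure D3:**
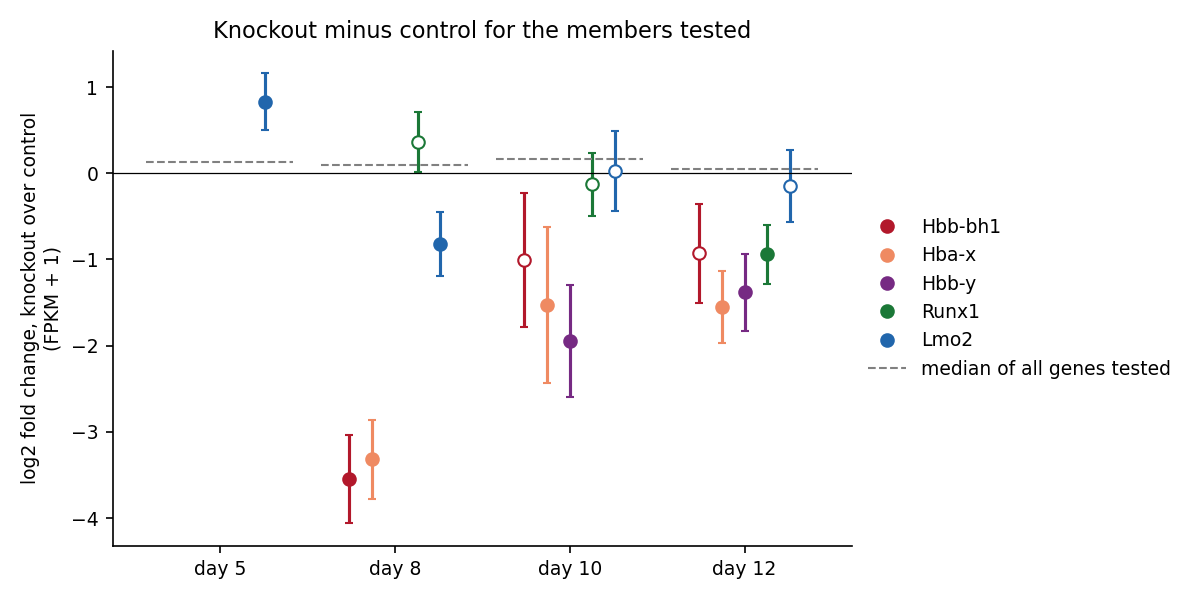
Log2 difference of FPKM + 1, knockout over control, of the members tested at days 5, 8, 10 and 12 (n = 3 libraries per group); bars are 95% intervals, filled points passed the test, and dashed lines mark the median of all genes tested. Hbb-bh1 and Hba-x sit at -3.55 and -3.32 at day 8, and between -0.93 and -1.55 at days 10 and 12, while Lmo2 stands above 0 at day 5 and below 0 at day 8.

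Whether the knockout effect itself differed between days was tested with limma on all 36 libraries, as an F test of the 5 line-by-day terms. All 5 members with a mean of 1 FPKM or more across the 6 libraries of some day passed, where 18.1% of 14459 genes did. The adjusted p was 4.92e-07 for Hbb-bh1, 3.52e-06 for Hba-x, 5.73e-06 for Hbb-y, 8.35e-06 for Runx1 and 0.00461 for Lmo2. For the globins, days on which both lines were near 0 leave no room for an effect. Pairs of days were therefore compared as well, a choice made after the values had been seen. The knockout effect on Hbb-bh1 was smaller at day 10 than at day 8 by 2.54 on the log2 scale (adjusted p = 0.00122, in a comparison that called 0.636% of genes) and at day 12 than at day 8 by 2.62 (adjusted p = 1.41e-04, where 4.07% were called). For Hba-x the difference between the effects at days 10 and 8 was 1.79 and missed the threshold (adjusted p = 0.0560), whereas that between days 12 and 8 was 1.77 and passed (adjusted p = 0.0162). The effect on Hbb-y was 1.35 further below 0 at day 10 than at day 8 (adjusted p = 0.0290), where its control level was below 1 FPKM. For Lmo2 the effect at day 8 lay 1.65 below that at day 5 (adjusted p = 7.41e-04, where 3.62% were called). For Runx1 it lay 1.30 lower at day 12 than at day 8 (adjusted p = 6.28e-06) and 0.81 lower at day 12 than at day 10 (adjusted p = 0.00886, where 1.44% were called).

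With any single one of the 36 libraries left out, the F test still called all 5. The day 3 differences of Runx1 and Klf1 have 1 control library without mt-Rnr2, replicate 3, at 0.106 FPKM of Runx1 and 0.487 FPKM of Klf1, and both values lay outside the knockout range. The globin differences of day 8 were of like size without knockout replicate 1, the library with the highest share of mt-Rnr2. The log2 differences were then -3.32 for Hbb-bh1 and -3.46 for Hba-x (adjusted p = 5.50e-05 for both). Lmo2 kept its size, at -0.84, and missed the threshold (adjusted p = 0.0800). At day 12, without knockout replicate 3, Hba-x, Hbb-y and Runx1 passed the test at log2 differences of -1.40, -1.30 and -0.96.

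Other blood factors were taken from a list of 19 genes. At day 5, 2 of 9 tested rose and 2 fell. Zfpm1, the cofactor of Gata1, averaged 2.00 ± 0.321 FPKM in knockout and 8.16 ± 1.29 FPKM in control libraries (SD, n = 3 each) and fell by 1.61 on the log2 scale (adjusted p = 4.56e-05). Meis1, a homeobox factor of blood stem cells and heart, was 0.280 ± 0.0928 FPKM in knockout and 2.27 ± 0.545 FPKM in control libraries and fell by 1.34 (adjusted p = 5.01e-04). It passed the filter on low values that day through the control libraries alone. Etv2, the factor that turns mesoderm to endothelium and blood, rose by 0.69 (adjusted p = 0.0155), as did Myb, a factor of definitive blood progenitors, by 0.65 (adjusted p = 0.0113). At day 8, 1 of 12 rose (Myb, 1.04) and 2 fell (Meis1, -1.28, and Fli1, -0.78). At day 10, 1 of 11 rose, again Myb, at 1.31. Its control mean was 0.843 FPKM, so it passed the filter on low values through the knockout libraries. Another 4 of the 11 fell. Those 4 included Meis1 at -0.96, Fli1 at -0.64 and Bcl11a at -0.62, the repressor of embryonic globin genes in adult cells. At day 12, 0 of 11 rose and 2 fell, Bcl11a at -1.23 and Meis1 at -0.74. The list's median log2 difference was -0.06, -0.26, -0.33 and -0.14 at days 5, 8, 10 and 12, beside medians of 0.13, 0.09, 0.17 and 0.05 for all genes tested.

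Genes of haem synthesis and iron uptake were taken from a list of 15. At day 0, 4 of 13 tested fell and none rose, where 8.03% of all genes tested fell. The list's median log2 difference was then -0.24, beside -0.01 for all genes tested. Of 12 tested, none passed limma's test in either direction at day 8 (1 had an unadjusted p below 0.05), and the median log2 difference was -0.01. At day 10, 2 of 12 rose and none fell, where 15% of all genes tested rose and 5.12% fell. The 2 included Alad, an enzyme of the haem pathway, at a log2 difference of 0.48 (adjusted p = 0.0298). With libraries rescaled, Alad missed the threshold, 1 gene of the list rose and 2 fell at day 10, and the list's median changed sign to -0.05. At day 12 none of 12 passed, and 1 had an unadjusted p below 0.05. These genes are used by all cells. Alas2, the red cell form of the first haem enzyme, was at most 1.63 FPKM, and its 3 values were 0.384, 0.222 and 0.170 FPKM in knockout and 1.18, 0.201 and 1.06 FPKM in control libraries at day 8.

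Genes of the red cell membrane were mostly those that other cells also express. At day 8 none of 6 tested passed, and 1 had an unadjusted p below 0.05. At day 10, 1 of 7 rose, the complement regulator Cd59a at 0.92 (adjusted p = 0.0037). At day 12, 1 rose, the spectrin gene Spnb1 at 0.65 (adjusted p = 0.0457; 0.0509 with libraries rescaled), and 1 fell, the glycophorin gene Gypc at -1.04 (adjusted p = 0.0118).

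Markers of other blood cells were low. Of 10 megakaryocyte genes, 0 of 2 tested passed at day 8 (1 with an unadjusted p below 0.05), 1 of 2 fell at day 10, the integrin gene Itgb3 at -0.54, and 1 of 3 fell at day 12. Pf4, the platelet factor of megakaryocytes, was listed at 0.131, 0 and 0 FPKM in knockout and at 2.73, 1.01 and 2.93 FPKM in control libraries of day 12. It passed the filter on low values through the control libraries alone, and its log2 difference was -1.57 (adjusted p = 0.0126). At day 10 Pf4 was listed at 0 in all 3 knockout libraries, against 0.734, 2.53 and 1.17 FPKM in control libraries. Ptprc, carried by all white cells, reached 0.647 FPKM at most, at day 12 in control. Of 10 macrophage and white cell genes only Cd68, a lysosomal protein that other cells also express, was tested from day 8 on, and it rose at day 10 (0.67) and day 12 (0.92).

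Markers of other cell types also differed between the lines from day 8 on, and some did so earlier. At day 5, 5 of 9 pluripotency genes tested rose and none fell, where 7.07% of all genes rose. Of 3 cardiomyocyte genes tested that day, 1 rose and 2 fell, where 3.32% of all genes fell. The pluripotency sum at day 5 was 952 to 1069 FPKM in knockout and 452 to 616 FPKM in control libraries. Of 10 cardiomyocyte genes, 8 of 9 tested fell at day 8, 9 of 9 at day 10 and 9 of 10 at day 12. Their summed level was 195 to 279 FPKM in knockout and 1228 to 1530 FPKM in control libraries at day 8, 273 to 426 FPKM in knockout and 1223 to 1288 FPKM in control at day 10, and 377 to 435 FPKM in knockout and 898 to 1082 FPKM in control at day 12. Myh6, the atrial myosin heavy chain, fell by 3.26 on the log2 scale at day 8 (adjusted p = 3.88e-05), about as far as Hbb-bh1. At day 10 the third libraries, which stood apart in the globins, were not the extreme ones of both lines here. The cardiomyocyte sums were 273, 426 and 355 FPKM in knockout libraries. In control libraries they were 1271, 1288 and 1223 FPKM, with the third the lowest. Of the 17 endothelial genes, 4 of 16 tested fell at day 8, 9 of 16 at day 10 and 4 of 16 at day 12, and none rose on those days. With libraries rescaled, 8 fell at day 8 and 13 at day 10. The endothelial sum was 111 to 144 FPKM in knockout and 176 to 191 FPKM in control libraries at day 8, and 94.0 to 109 FPKM in knockout and 123.1 to 161 FPKM in control at day 10. Here the third libraries of day 10 were the extreme ones, highest in knockout at 109 FPKM and lowest in control at 123.1 FPKM. The sum of the other blood factors placed them likewise, at 161 FPKM in knockout and 141 FPKM in control. The sums of pluripotency and visceral endoderm genes did not. Cdh5, the cadherin of endothelial cells, was 10.0 ± 0.675 FPKM in knockout and 17.99 ± 1.07 FPKM in control libraries at day 8 (SD, n = 3 each). Pluripotency genes went the other way at days 8 and 10, with 4 of 10 higher at day 8 and 8 of 10 at day 10 (6 of 10 with libraries rescaled). At day 12, 0 of 10 passed (1 with an unadjusted p below 0.05), and 9 of 10 had a log2 difference below 0. The list's median was -0.22 that day, beside 0.05 for all genes tested. The pluripotency sum was 187 to 223 FPKM in knockout and 64.3 to 106 FPKM in control libraries at day 10. Of 10 genes of visceral endoderm, the yolk sac tissue beside the first blood cells, none passed at day 8 (1 with an unadjusted p below 0.05), 7 fell at day 10, and 1 rose and 1 fell at day 12 (3 fell with libraries rescaled). Their sum was 293 to 334 FPKM in knockout and 591 to 1010 FPKM in control libraries at day 10. The part of these cell types in the members' results was not tested, and in RNA of whole embryoid bodies fewer cells of a type and less RNA per cell cannot be told apart.

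**Figure D4:**
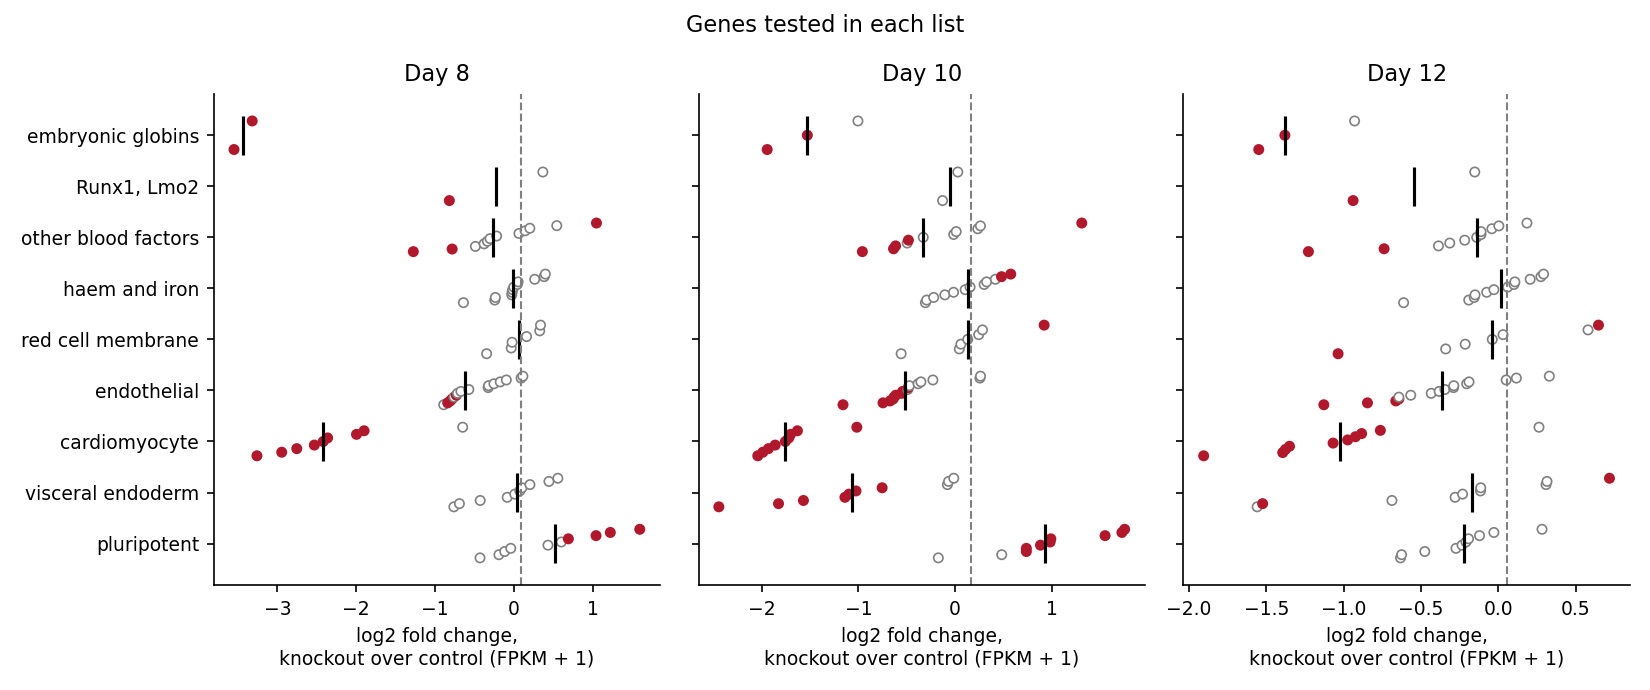
Log2 difference of FPKM + 1, knockout over control, for each gene tested in 9 gene lists at days 8, 10 and 12 (n = 3 libraries per group); filled points passed the test, black bars are list medians and the dashed line is the median of all genes tested. Embryonic globins and cardiomyocyte genes lie lowest at day 8, while haem and iron genes centre on the median of all genes.

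Kdr, the receptor on the mesoderm that forms blood and vessels, differed between the lines before the globins were above 1 FPKM. At day 5 it was 0.875, 0.893 and 1.01 FPKM in knockout and 19.0, 17.2 and 21.8 FPKM in control libraries, and Lmo2 and Etv2 were higher in the same knockout libraries. Kdr passed the filter on low values that day through the control libraries, since its knockout mean was 0.927 FPKM. The endothelial list as a whole did not move with Kdr at day 5. Of 8 genes tested, 2 fell, Kdr and Sox17, 0 rose and 3 had a log2 difference below 0. The list's median was 0.14, beside 0.13 for all genes tested. Sox17 lies on chromosome 1, where genes tested had a median log2 difference of -0.14 that day, against 0.14 on other chromosomes. At days 8, 10 and 12 the chromosome 1 median was -0.19, -0.12 and -0.21, against 0.11, 0.18 and 0.07 on other chromosomes. The part of this chromosome-wide shift in the list genes was not tested. By day 8 Kdr was 16.2 ± 2.17 FPKM in knockout and 29.0 ± 0.770 FPKM in control libraries (SD, n = 3 each), a log2 difference of -0.81 (adjusted p = 0.0102).

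The genes whose course was most like that of a member were ranked by Pearson's r of log2(FPKM + 1) over the 36 libraries, as a description. Libraries share a line, a day and a table, so r reflects the course of the differentiation as a whole. Hbb-bh1 was most like Hba-x, at r = 0.987. Among the 10556 genes outside the members with a group mean of 5 FPKM or more, it was most like Csrp3, Myh6, Popdc2, Ppp1r3c and Ptgs2, at r of 0.949 to 0.956. Csrp3, Myh6 and Popdc2 are genes of heart muscle. Runx1 was most like Scel, Ltbp1, Igfbp5, Emcn and Masp1, at r of 0.968 to 0.973. Tal1 was most like Erg, Nkx2-3, Tie1, Ctla2b and Myocd, at r of 0.813 to 0.844, among 14972 genes with a group mean of 1 FPKM or more; Erg and Tie1 are endothelial genes. Gata1 had no close match, its best being Csrnp3 at r = 0.599, and its r with Hbb-bh1 was -0.06.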

How the data were processed

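RNA was measured in 36 libraries. Per the submitters' processing notes, the authors used TopHat, Cufflinks and the mouse build mm9; versions, annotation and settings are not given in the sources used here. The deposited values are FPKM per gene, in 6 tables of 1 day each; whether tables were normalized together is not stated, so levels were not tested across days. A Cufflinks value of 0 can be a failed estimate, so such genes are called listed at 0. The protocol and the design text name different sequencers.

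Per day, limma 3.58.1 (lmFit, eBayes with trend, R 4.3.3) was run on log2(FPKM + 1) for genes averaging at least 1 FPKM, two-sided, with Benjamini-Hochberg adjustment over all genes tested and a threshold of 0.05. The F test used 12 group means. On simulated data with 200 changed genes, log2 changes of 1 were recovered in 60% at day 8, 66% at day 10 and 68% at day 12. Of the calls made there, 7.69% were false at day 8, above the 0.05 threshold, 2.38% at day 10 and 4.62% at day 12. Alternatives were other pseudocounts (0.1, 0.5) and filters (none, 0.2 FPKM), rescaled libraries, no trend, 1 joint fit, a replicate block and leaving out each library.

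Members, lists and tests were chosen with earlier results of these data known. Named list genes were at most 4 per list and day, those with the largest log2 difference past the threshold without overlap; Alas2, Pf4 at day 10, Ptprc and the other globins were added as defining markers after their values were seen. Same-numbered replicates were checked for pairing (closing section). FPKM carries no counts, so no counting interval is given. Some named list genes are not reported here.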

Additional observations from a re-analysis of the deposited data

Results flagged for a closer look

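For 5 members the knockout effect differed between days (limma F test of the line-by-day terms, adjusted over 14459 genes, of which 18.1% passed). For the globins both lines were near 0 through day 5, so any later difference enters this test, which cannot be read as support. The adjusted p was 4.92e-07 for Hbb-bh1, 3.52e-06 for Hba-x, 5.73e-06 for Hbb-y, 8.35e-06 for Runx1 and 0.00461 for Lmo2. Lmo2 changed direction, from a log2 difference of 0.83 at day 5 to -0.82 at day 8, and Runx1 from 0.36 at day 8, which did not pass its own test, to -0.94 at day 12. Outliers within groups were not tested, since each group has 3 libraries.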

How the results depend on the processing

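Of 207 alternative values of single members, 186 kept their direction and side of the threshold, 12 lost a call, 6 gained one and 3 changed sign. The 3 were Lmo2 at day 10, never past the threshold: -0.11 with libraries rescaled and, leaving out one library, -0.11 without knockout replicate 3 and -0.21 without control replicate 3, in a range up to 0.18. Without a filter on low values more genes were tested, and 0 members passed at day 5 (1 with the filter) and 1 at day 10 (2 with it). That 1 was Gfi1b, which the filter leaves out, while Hba-x and Hbb-y missed the threshold. At day 8 Hbb-bh1, Hba-x and Gfi1b passed and Lmo2 did not, and at day 12 Hba-x and Hbb-y passed and Runx1 did not. Leaving out one library in turn, 1 passed at day 5, 2 to 3 at day 8, 1 to 3 at day 10 and 2 to 3 at day 12; the low value at day 10 came without control replicate 2. Hbb-bh1 at day 12 passed without control replicate 3 (-1.16, adjusted p = 0.0342), and in the joint fit of 36 libraries Hbb-bh1 passed at days 10 and 12 and Runx1 at day 8 (adjusted p = 0.0479). Hbb-y at day 12 fell under the filter without any 1 control library. The effect differed between days 10 and 8 for 2 members (0.636% of all genes), 12 and 8 for 3 (4.07%) and 12 and 10 for 1 (1.44%). Between days 8 and 5 it differed for Hbb-bh1, Hba-x, Lmo2 and Runx1 (3.62% of all genes). Runx1 was 0.64 higher at day 8 in that limma comparison (adjusted p = 0.0249). The cause of these shifts was not tested.

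With a replicate block, members passing stayed at 0, 0, 1, 3, 2 and 3 at the 6 days and 5 for the F test. The numbers did not pair the libraries: deviations of same-numbered libraries correlated at -0.12 to 0.27. Over all genes, the block moved the calls at day 0 to 824 against 1770, at day 3 to 342 against 210 and at day 12 to 464 against 878.

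Low levels limit the comparison: Tal1, Gfi1b, Gata1 and Klf1 were too low for the test with a filter at 1 FPKM.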
